A study of Bos taurus with 15 samples.

Results

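Oocytes from bovine dominant follicles (DF oocytes) were compared at 2 times near ovulation, 2 h before and 24 h before, as single cells. The members are the libraries whose labels give those times, 11 of the 15 oocytes in the series. The 2 h group holds 5 oocytes, numbered T3.1 to T3.5, and the 24 h group 6, numbered T1.1 to T1.6. The other 4 oocytes carry another time label and were not compared here. All donors were crossbred beef heifers given no FSH, and both groups were synchronised with a GnRH analogue, a progesterone device and a prostaglandin analogue. Only 1 oocyte came from each animal, so p-values measure the spread between animals, and cumulus cells were removed before freezing. The 2 h heifers had in addition received a second dose of GnRH, the hormone that triggers the ovulatory LH surge, and were slaughtered a day later than the 24 h heifers. Time, the GnRH dose and the day of slaughter therefore cannot be told apart. The study left out 4 of these 11 libraries for few counts inside genes, namely 1 at 24 h (T1.4) and 3 at 2 h (T3.1, T3.3, T3.5), so every comparison was repeated on the 7 it kept, 5 at 24 h and 2 at 2 h.

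Near ovulation the fully grown oocyte is largely silent in transcription, and its mRNA content is set mainly by storage, polyadenylation and decay of transcripts made during growth. The LH surge ends meiotic arrest, after which the nucleus breaks down and the spindle forms. The question put to the data was which transcripts were fewer, or no longer counted, in the last hours before ovulation. Library preparation was by Smart-seq2, which captures mRNA by its poly(A) tail, so a shortened tail and a lost transcript cannot be told apart. Levels are given as CPM (a gene's count relative to its library's total, scaled by trimmed mean of M values, TMM), which are shares of a library and not amounts per oocyte. PCR copies were not marked by molecular identifiers, so the counts are reads rather than molecules. Symbols came from the study's own gene table, and only 1251 of the 7566 genes tested over 11 oocytes have one. The other 6315 are known here by identifier only, and gene names below are a choice made by that table.

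Of the 5 libraries at 2 h, 3 were shallower than every 24 h library, and the kept T3.2 and T3.4 lay within the 24 h range. Total counts at 24 h ran from 824854 to 4894970 with a median of 3065166. At 2 h they were 620910, 2834737, 271763, 2617518 and 175263 for T3.1 to T3.5, the lowest 3 being those left out by the study. T1.4, left out at 24 h, had 2874041 counts, within the range of the kept oocytes. Genes with a count above 1 numbered 9348 ± 1473 (SD, n = 6) at 24 h and 5952 ± 2712 (SD, n = 5) at 2 h. The 2-sided exact permutation p was 0.0346 for total counts and 0.0303 for genes, both 0.0693 after Benjamini-Hochberg adjustment over 4 library measures. With every library thinned to 175263 counts the numbers of genes were 5953 ± 1045 (SD, n = 6) at 24 h and 4414 ± 1325 (SD, n = 5) at 2 h, and the exact permutation p was 0.0649. Among the 7 kept oocytes the gene numbers were 9803 ± 1075 (SD, n = 5) at 24 h and 8652 ± 558 (SD, n = 2) at 2 h. The exact permutation p was 0.190, and no p under 0.0952 can be had from 2 against 5. The 10 most counted genes held 29.8% of the counts of T3.1 and 27.3% of those of T3.5, against 4.63% to 17.1% at 24 h. They held 12.8%, 13.6% and 12.3% in T3.2, T3.3 and T3.4, within the 24 h range. The exact permutation p for this share over 11 oocytes was 0.0866, before and after adjustment. OOSP2 alone accounted for 18.8% of what was counted in T3.1.

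**Figure D1:**
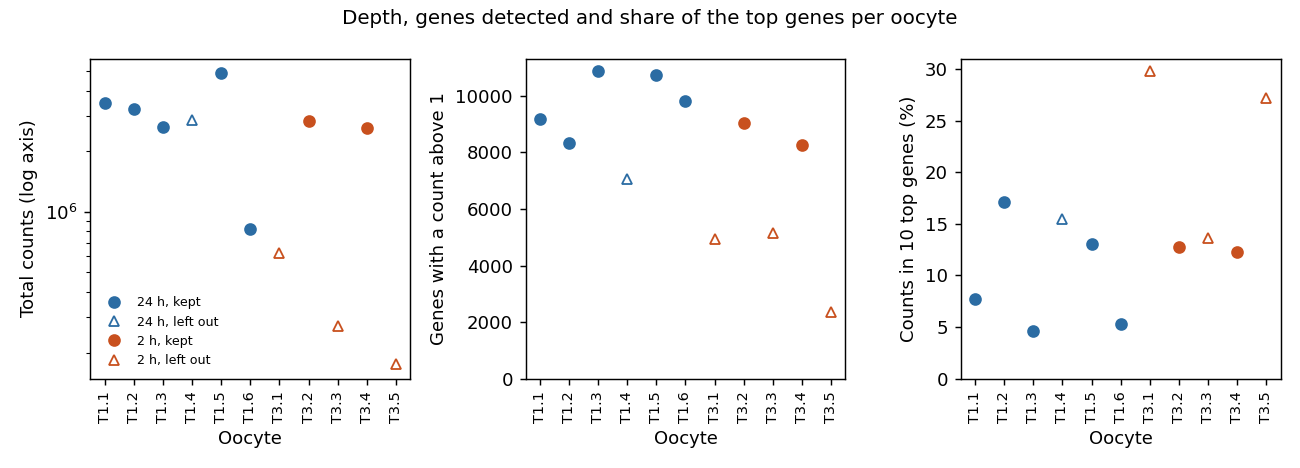
Total counts (log axis), genes with a count above 1 and percentage of counts in the 10 most counted genes, for each of 11 oocytes. Filled circles are oocytes kept by the study and open triangles those left out; T3.1, T3.3 and T3.5 lie below all 24 h oocytes in counts and in genes.

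The oocyte label could be checked by few markers only. Of 24 oocyte markers on the list, 4 have a symbol here (OOSP2, KPNA7, FIGLA and NOBOX), and their mean level was 7.61 to 9.10 log2 CPM at 24 h and 7.38 to 9.49 at 2 h. These markers moved apart in T3.1. OOSP2, at 211012 CPM, was above every 24 h oocyte there. KPNA7, an oocyte importin, was too, at 1473 CPM against 195 to 661 CPM (median 335) at 24 h. FIGLA, a transcription factor of oocytes, was at 1.81 CPM from a single count, against 69.3 to 4308 CPM (median 1632) at 24 h, and NLRP5, of the subcortical maternal complex, had no count. STAR, a steroidogenic gene of follicular cells and 1 of 2 named cumulus and granulosa markers, was at 90.7 to 301 CPM (median 183) at 24 h and at 32.5, 122, 58.1, 58.1 and 20.0 CPM in T3.1 to T3.5. The other, CD44, was too low to be tested over 11 oocytes. SRGN, a proteoglycan of blood cells and 1 of 2 named leukocyte markers, was at 1063, 89.9, 207, 0, 13.4 and 326 CPM in T1.1 to T1.6 and at 0, 127, 0, 1.64 and 0 CPM in T3.1 to T3.5. It was thus counted in 5 of 6 oocytes at 24 h and in 2 of 5 at 2 h, with a log2 fold change of -3.36 ± 1.44 (SE, edgeR adjusted p = 0.999). Leaving out each oocyte moved the SRGN value from -8.32 (without T3.2) to -2.23 (without T1.1). The other leukocyte marker, CSF1R, a receptor of macrophages, was at 0 to 45.8 CPM (median 6.67) at 24 h and at 0, 0.39, 74.7, 15.1 and 0 CPM at 2 h, with a log2 fold change of 0.48 ± 1.47 (SE, edgeR adjusted p = 0.999). Its mean log2 CPM over 11 oocytes was nevertheless lower at 2 h, and without T3.3 its log2 fold change was -1.51. Over the 7 kept oocytes the log2 fold changes were -2.5 for SRGN, -0.95 for CSF1R, -1.04 for STAR and -0.82 for CD44, so all 4 markers of other cells were below 0, as were 59.4% of all genes, and none passed the test. The part of other cells' RNA in the results was not tested. No erythrocyte marker on the lists has a symbol here.

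By edgeR's quasi-likelihood test no gene passed the call rule at 2 h against 24 h, which was an adjusted p below 0.05 with an absolute log2 fold change above 1.5. With it 0 of 7566 genes were called over 11 oocytes (0%), with a smallest adjusted p of 0.636, and 0 of 9981 over the 7 kept (0%), with a smallest adjusted p of 0.909. At an unadjusted p below 0.05 there were 179 lower (2.37%) and 131 higher (1.73%) over 11 oocytes (4.1% together), and 425 lower (4.26%) and 70 higher (0.701%) over 7. The split over 11 oocytes turned with the scaling, with 192 lower and 199 higher under RLE (relative log expression) factors, 164 and 466 under upper-quartile factors and 22 and 60 after thinning to the smallest library, against 436 and 65, 438 and 63, and 312 and 47 over 7. It turned too without T3.5, with 215 lower and 241 higher, and the lower count over 11 ran from 93 without T1.5 to 570 without T3.2. Among genes with 10 or more counts in every oocyte, 11 were lower and 60 higher over 11 oocytes. Over 7 that filter left 95 lower and 69 higher, so most of the lean to lower calls went. edgeR's likelihood ratio test called 6 genes over 11 oocytes (0.0793%), all lower, and 17 over 7 (0.17%), of which 14 were lower. DESeq2 called 17 (12 lower, 5 higher) and 86 (85 lower, 1 higher). NBEAL1 (lower) and OOSP2 (higher) were the genes with a symbol among DESeq2's 17. Over 7 oocytes the genes with a symbol that both the likelihood ratio test and DESeq2 called were TMEM106C, KAT8, ENDOG and EMG1, all lower, and PAM16, which was higher. DESeq2's 86 also held PIK3CB, MTMR14 and TRMT1, all lower. TMEM106C, KAT8, ENDOG, MTMR14 and TRMT1 had no count in T3.2 or T3.4 and passed the filter through 24 h oocytes alone. Their sign over 7 oocytes was fixed before the fit, so nothing is drawn from their being called by more than 1 tool. Fitted fold changes leaned to lower values at 2 h. Their median over all genes was -0.35 on the log2 scale over 11 oocytes, with 64% of genes below 0, and -0.24 over 7, with 59.4% below 0. Leaving out each oocyte moved it from -0.58 (without T3.4) to -0.26 (without T3.5) over 11 and from -0.73 (without T3.2) to -0.13 (without T1.5) over 7. With upper-quartile scaling the 11-oocyte median was -0.06. After thinning it was 0.00 over the 2944 genes tested, and it was 0.10 over the 776 genes that held 10 or more counts in each of the 11 libraries. Upper-quartile scaling kept the depth and the 7566 genes, so it changed the scaling alone. Thinning changed depth and the genes tested together, and these were not separated. Over the kept oocytes the median was -0.28 with upper-quartile scaling and -0.18 after thinning, and over the 4564 genes with 10 or more counts in each of the 7 it was -0.07, with 53.8% below 0. The standard errors given with fold changes below are wide, and p-values are adjusted over all genes tested.

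The named genes with the lowest p on the lower side covered several cell functions. PEX11A, which promotes division of peroxisomes, was at 0 to 17.5 CPM (median 9.03) at 24 h, with T1.2 at 0, and at 0, 0.39, 0, 0 and 0 CPM in T3.1 to T3.5. Its log2 fold change was -5.53 ± 1.77 (SE, edgeR adjusted p = 0.83). A single count in T3.2 was all that 2 h oocytes held of it. NBEAL1, a BEACH-domain protein, was at 8.14 to 182 CPM (median 70.5) at 24 h and at 0, 7.41, 8.29, 11.5 and 0 CPM at 2 h, with a log2 fold change of -3.86 ± 1.25 (SE, edgeR adjusted p = 0.83). The groups met only because T1.2, at 8.14 CPM, lay below T3.3 and T3.4. KLHL5, a member of the kelch-like family, was likewise at 1.11 CPM in T1.2 but at 35.8 to 111 CPM in the other 24 h oocytes. At 2 h it was at 3.62, 1.17, 0, 5.73 and 0 CPM, a log2 fold change of -4.19 ± 1.38 (SE, edgeR adjusted p = 0.86). T1.2 was the low 24 h oocyte for these 3 genes and for SEPTIN4, a filament-forming GTPase, which it held at 0.

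MSL1 and KAT8 encode the scaffold and the acetyltransferase of the MSL complex, which acetylates histone H4. MSL1 was at 0.74 to 79.8 CPM (median 29.7) at 24 h and at 0, 4.29, 0, 2.86 and 0 CPM in T3.1 to T3.5, with a log2 fold change of -4.05 ± 1.48 (SE, edgeR adjusted p = 0.999). KAT8 was at 0 to 43.9 CPM (median 17.7) at 24 h and at 0, 0, 8.29, 0 and 0 CPM at 2 h, with a log2 fold change of -4.21 ± 1.87 (SE, edgeR adjusted p = 0.999). Its 2 h reads were 2 counts in T3.3, and T1.4 held none. KAT8 was named for its p over the 7 kept oocytes, and MSL1 for its p over 11. In both genes at least 1 oocyte at 24 h was within the 2 h range. Of the remaining named genes with the lowest p on the lower side over 11 oocytes, CYHR1 (log2 fold change -4.46, edgeR adjusted p = 0.999) was held low at 24 h by T1.1, at 0.557 CPM, against 10.7 to 57.3 CPM in the other 5.

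Groups that did not overlap were counted as a second view that uses no test. Every 2 h oocyte was below every 24 h oocyte in 65 genes (0.859% of 7566) and above in 2 (0.0264%). Over the kept oocytes the counts were 533 lower (5.34% of 9981) and 354 higher (3.55%). Of the 21 splits of 7 oocytes into 2 and 5, 1 leaves a gene without ties lower and 1 leaves it higher. These shares are therefore not read as a difference between times. After thinning, with 2944 genes tested, the counts over 11 oocytes were 11 lower and 4 higher. Of the 65, 8 have a symbol. DTX2, MORN4, PIP4P1 and PTDSS1 were also among the lowest p, and DNAH17, RNF25, PRKD3 and FAAP24 were chosen for naming after their values were seen. DTX2, an E3 ubiquitin ligase of the Deltex family linked to Notch signalling, was at 11.1 to 53.8 CPM (median 36.9) at 24 h and at 1.81, 3.9, 4.15, 3.68 and 0 CPM at 2 h, with a log2 fold change of -3.51 ± 1.29 (SE, edgeR adjusted p = 0.999). Its highest 2 h oocyte, T3.3, rested on a single count. PRKD3, a protein kinase of the D family, was at 36.1 to 111 CPM (median 64.4) at 24 h and at 21.7, 23.4, 20.7, 0.818 and 0 CPM at 2 h, with a log2 fold change of -2.31 ± 1.12 (SE, edgeR adjusted p = 0.999). FAAP24, a DNA-binding protein of the Fanconi anaemia core complex, was at 26.7 to 148 CPM (median 39.3) and at 0, 15.6, 16.6, 23.3 and 0 CPM. DNAH17, an axonemal dynein heavy chain, was at 23.7 to 80.3 CPM (median 35.0) and at 0, 15.6, 0, 3.27 and 0 CPM. RNF25, an E3 ubiquitin ligase, was at 15.0 to 94.0 CPM (median 35.8) and at 10.8, 10.5, 12.4, 1.23 and 0 CPM, a gap of 15.0 against 12.4 CPM between the nearest oocytes. T3.5 held no count of DTX2 or RNF25, but a count of 0 there allows up to 3 counts, or 15.0 CPM. The lowest 24 h values of these genes were 11.1 and 15.0 CPM, so T3.5 does not show a gap for them.

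A pair of phospholipid enzymes stood in the same group at lower levels. PTDSS1, which makes phosphatidylserine, was at 2.51 to 48.2 CPM (median 6.07) at 24 h and at 0, 1.17, 0, 2.04 and 0 CPM at 2 h. PIP4P1, a phosphatase of phosphatidylinositol 4,5-bisphosphate, was at 2.13 to 12.3 CPM (median 9.36) and at 0, 1.56, 0, 0 and 0 CPM. MORN4 was at 3.06 to 24.3 CPM (median 7.52) and at 0, 0, 0, 1.64 and 0 CPM. For these 3 genes most 2 h values are 0. A count of 0 allows up to 3 counts, equal to 5.42, 1.17, 12.4, 1.23 and 15.0 CPM for T3.1 to T3.5, so at the 24 h levels of these genes and of PEX11A the zeros of the 3 shallowest libraries show little. The smallest 24 h value of PIP4P1 rested on 5 counts. In the 7 kept oocytes the log2 fold changes were -2.16, -3.61 and -3.48.

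**Figure D2:**
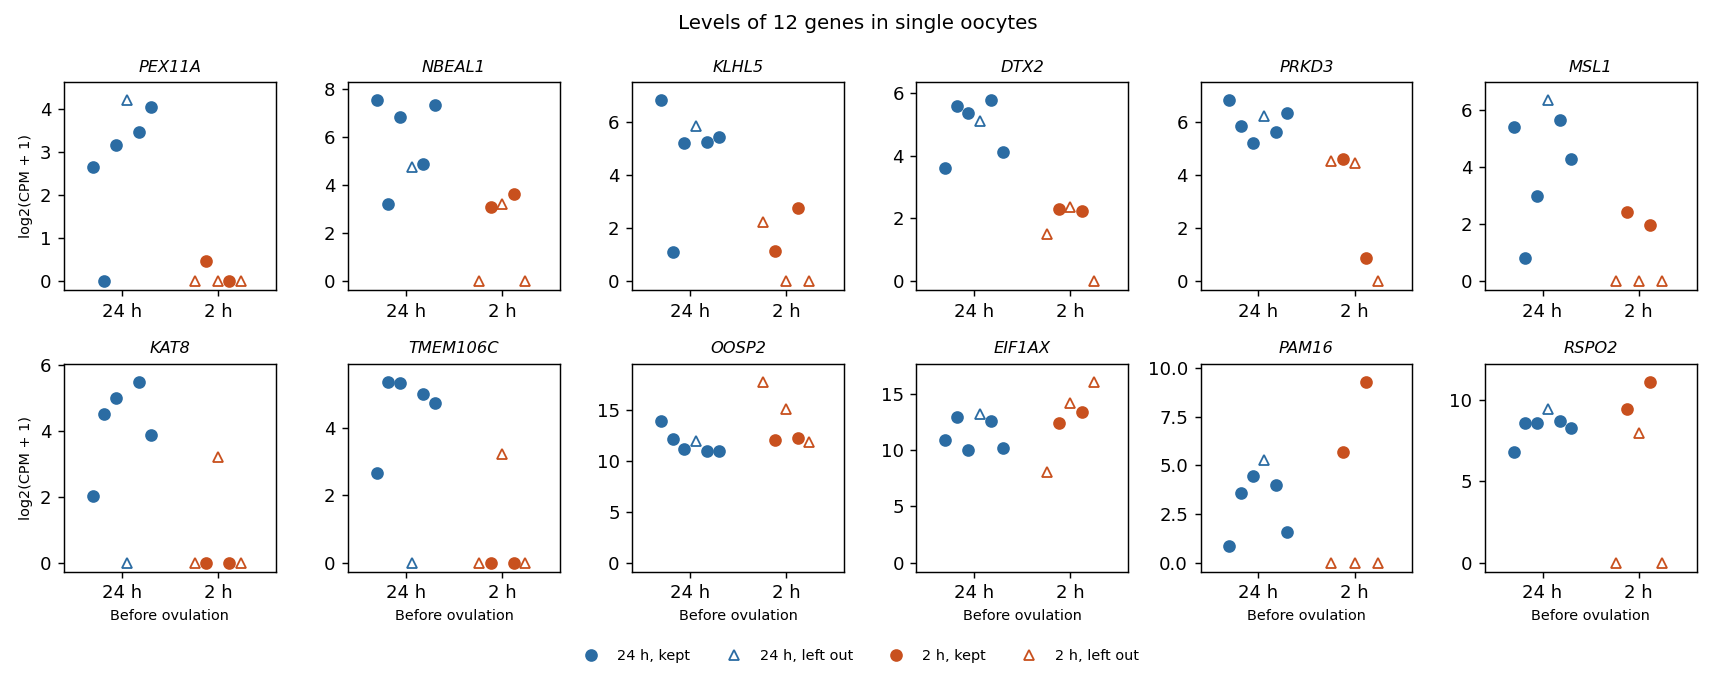
Level of 12 genes, as log2(CPM + 1), in the 6 oocytes at 24 h and the 5 at 2 h before ovulation; each point is 1 oocyte, filled where the study kept it. DTX2 and PRKD3 show no overlap, though DTX2 had a single count in T3.3 and none in T3.5. OOSP2 at 2 h is high in T3.1 and T3.3 and PAM16 in T3.2 and T3.4.

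Transcripts lost before ovulation were defined as those with at least 10 counts in every 24 h oocyte and none in any 2 h oocyte. Over 11 oocytes 4 of the 4266 genes with such counts at 24 h were lost (0.0938%), and 0 of 794 were gained by the mirrored rule (0%). None of the 4 has a symbol. ENSBTAG00000001306 held 48 to 228 counts in the 24 h oocytes, or 14.5 to 76.8 CPM (median 41.6), and was the 1 gene of the 4 with at least 20 counts in each. Against a floor of 3 counts over the 2 h group it was at least 77.4-fold lower at 2 h. ENSBTAG00000010393 held 16 to 180 counts at 24 h and was at least 57.6-fold lower. Both bounds are for the 2 h libraries pooled, whose counts came mostly from T3.2 and T3.4. Taken singly, T3.1, T3.3 and T3.5 have floors of 5.42, 12.4 and 15.0 CPM, so the bounds do not hold for each of them. Both genes had the lowest p-values of all genes on the lower side, but they passed the filter through 24 h oocytes alone. Their sign was fixed before the fit, so these p-values add no support to the loss. After thinning to 175263 counts no gene met the rule, and leaving out T3.2 raised the number to 26.

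Over the kept oocytes 20 of 5090 genes were lost (0.393%) and 6 of 5951 gained (0.101%), with T3.2 and T3.4 as the 2 h oocytes. After thinning the numbers were 8 and 0. Of the lost genes 9 have a symbol. ENDOG, a mitochondrial nuclease, held 18 to 234 counts in the 5 kept 24 h oocytes and was at least 52.5-fold lower at 2 h. TMEM106C held 19 to 146 counts and was at least 46.6-fold lower. KAT8, described above, was at least 43.1-fold lower, MTMR14, a phosphoinositide phosphatase, at least 25.2-fold, and TRMT1, a tRNA methyltransferase, at least 23.0-fold. The oocytes that the study left out did not all follow. ENDOG had 9 counts in T3.1 and 4 in T3.3 and none in T1.4. MTMR14 had 8 counts in T3.1 and 1 in T3.3. TRMT1 had 21 counts in T3.3, or 87.1 CPM, above its 24 h maximum of 23.5 CPM, and its log2 fold change over 11 oocytes was 0.29 ± 1.49 (SE, edgeR adjusted p = 0.999). The direction for TRMT1 depends on the summary used, since its mean log2 CPM was 1.19 at 2 h and 3.77 at 24 h. Without T3.3 its log2 fold change was -8.0, but no 2 h oocyte then held a count of TRMT1, so that value is no bound. All 6 gained genes are without a symbol.

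Of the named genes with the lowest p over the kept oocytes, PIK3CB and EMG1 were lower without reaching 0 throughout. PIK3CB, a catalytic subunit of phosphoinositide 3-kinase, was at 30.9 to 107 CPM in the kept 24 h oocytes and at 4.29 and 0.818 CPM in T3.2 and T3.4, with a log2 fold change of -4.5 ± 1.13 (SE, edgeR adjusted p = 0.909). EMG1, a methyltransferase of ribosome biogenesis, was at 21.7 to 67.7 CPM and at 0 and 1.64 CPM, with a log2 fold change of -5.67 ± 1.43 (SE, edgeR adjusted p = 0.909). Over 11 oocytes their log2 fold changes were -2.15 and -3.29. T1.4 held no PIK3CB.

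Higher transcripts at 2 h rested on particular oocytes. OOSP2, an oocyte secreted protein, was at 1942 to 15004 CPM (median 3047) at 24 h and at 211012, 4249.6, 34842, 4864 and 3587 CPM in T3.1 to T3.5. The log2 fold change was 3.4 ± 0.98 (SE, edgeR adjusted p = 0.644) over 11 oocytes and -0.26 ± 1.03 (SE, edgeR adjusted p = 1) over 7. Without T3.1 the OOSP2 value over 11 oocytes was 1.25. T3.1 and T3.3 were above every 24 h oocyte, and the other 3 were within the 24 h range. ITGB1, an integrin beta subunit, showed the same arrangement, at 252 to 778 CPM (median 352) and at 6694, 281, 1062, 298 and 405 CPM, with log2 fold changes of 2.1 over 11 oocytes and -0.59 over 7. Without T3.1 the ITGB1 value over 11 was 0.31. USB1, an exonuclease that trims U6 RNA, was at 20.0 to 76.6 CPM (median 46.6) and at 734, 19.5, 597, 4.09 and 5.0 CPM, again high in T3.1 and T3.3, with log2 fold changes of 2.57 and -1.95. HOOK2, a linker of cargo to microtubules, was at 0 to 10.3 CPM (median 3.9) and at 65.1, 0.39, 195, 0.818 and 0 CPM. ABHD3, a phospholipase, was counted at 2 h in T3.1 alone, at 454 CPM against at most 10.0 CPM at 24 h.

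EIF1AX, a factor for start codon choice in translation, was at 1028 to 9435 CPM (median 4027) at 24 h and at 271, 5530.5, 18817, 11100.0 and 68355 CPM in T3.1 to T3.5. Its log2 fold change was 2.18 ± 0.91 (SE, edgeR adjusted p = 0.999) over 11 oocytes and 1.16 ± 0.94 (SE, edgeR adjusted p = 1) over 7. T3.5, T3.3 and T3.4 were above all 24 h oocytes and T3.1 was below all of them. FMR1NB was at 10.3 to 57.0 CPM (median 23.0) and at 0, 17.2, 4.15, 212 and 780.5 CPM, high in T3.4 and T3.5, with log2 fold changes of 2.82 and 2.15. CUBN, an endocytic receptor, was at 0 to 11.5 CPM (median 2.0) and at 0, 26.1, 0, 42.9 and 210.1 CPM, with log2 fold changes of 3.78 and 2.83. CYP2J30, a cytochrome P450, was at 0 to 4.87 CPM (median 0.209) and at 0, 26.9, 112, 4.09 and 10.0 CPM, with log2 fold changes of 4.3 and 3.09. Leaving out T3.5 lowered the values over 11 oocytes to 1.01 for EIF1AX, 1.06 for FMR1NB and 2.16 for CUBN. Without T3.3 that of CYP2J30 was 2.77. Over 7 oocytes EIF1AX was 0.57 without T3.4 and CYP2J30 was 1.15 without T3.2. No gene of this group was high in all 5 oocytes.

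Over the kept oocytes PAM16, a part of the motor that draws proteins into the mitochondrial matrix, had the lowest p of the named genes. It was at 0.835 to 20.9 CPM in the 5 kept 24 h oocytes, at 50.3 CPM in T3.2 and at 616 CPM in T3.4. The log2 fold change was 5.02 ± 1.03 (SE, edgeR adjusted p = 0.909), and T3.1, T3.3 and T3.5 held no count of it. The likelihood ratio test and DESeq2 both called it over 7 oocytes. Without T3.4 its log2 fold change over 7 was 2.3. RSPO2, a secreted enhancer of Wnt signalling, was at 112 to 415 CPM and at 708 and 2221 CPM, with a log2 fold change of 2.15 ± 0.65 (SE, edgeR adjusted p = 0.909). T3.1 and T3.5 again held none, and over 11 oocytes the value was 0.73 ± 1.04 (SE). EPHA6, an ephrin receptor, MPZL3 and C2H2orf80 followed, with log2 fold changes of 1.62, 1.95 and 2.26 over 7 oocytes and 0.59, 0.87 and 1.2 over 11. The direction over 11 oocytes depends on the summary used, since the mean log2 CPM was lower at 2 h than at 24 h for RSPO2 (5.67 against 8.42), EPHA6 (6.09 against 6.84), MPZL3 (5.82 against 7.79), C2H2orf80 (3.4 against 5.32) and PAM16 (2.92 against 3.27). T3.4 was the highest of all 11 oocytes for each of these 5 genes, C2H2orf80 standing at 439 CPM there against 68.2 in T3.2.

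**Figure D3:**
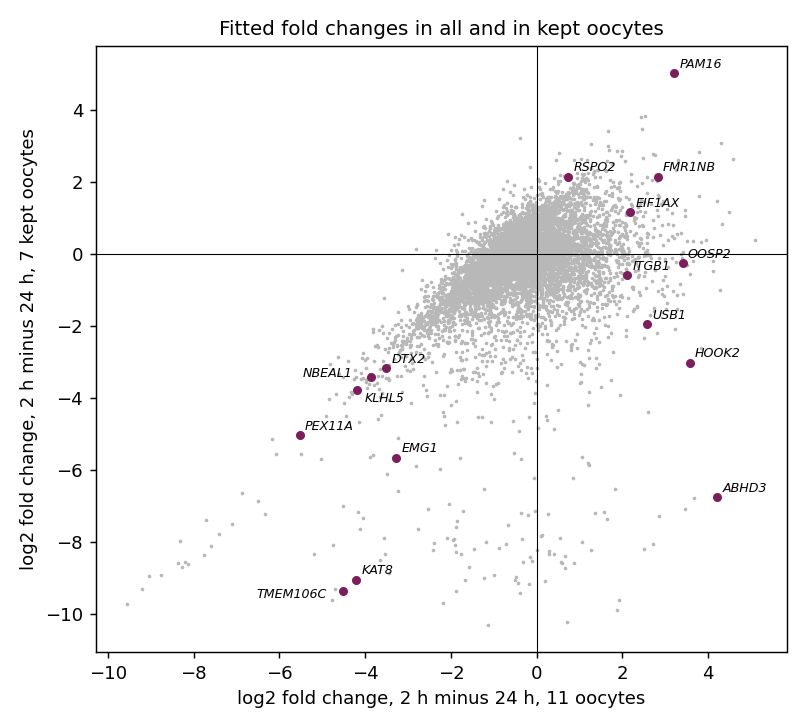
Fitted log2 fold changes, 2 h minus 24 h, of the 7566 genes tested in both fits, over 11 oocytes (horizontal) and over the 7 kept (vertical); each grey point is a gene, and the lowest values belong to genes at 0 in every oocyte of a group and are no bounds. The signs are opposite for 2804 genes, among them OOSP2, ITGB1, USB1, HOOK2 and ABHD3.

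Gene lists were read by their medians beside that of all genes tested, -0.35 over 11 oocytes and -0.24 over 7. Listed genes with a symbol all stand in the study's table, which marks genes for large cortical oocytes or for DF oocytes. Genes marked for cortical oocytes had medians of -0.66 over 11 and -1.23 over 7, and those marked for DF oocytes -0.17 and 0.15. The lists were not tested against these classes. By edgeR's quasi-likelihood test none of the listed genes passed the call rule in either set. Of the listed genes, other tools called PAM16 over 7 oocytes (the likelihood ratio test and DESeq2) and OOSP2 over 11 (DESeq2). The 29 named cytosolic ribosomal proteins had a median log2 fold change of -0.41 over 11 oocytes, with 21 below 0, and 0.39 over 7, with 7 below 0. Lists of nuclear genes of oxidative phosphorylation did likewise. Those of ATP synthase, complex I and complex IV were matched by name alone, so a member need not be a subunit of that complex. ATP synthase, which makes ATP from the proton gradient, had a median of -0.56 over 11 (8 of 11 below 0) and 0.53 over 7 (1 of 11 below 0). The 10 named genes on the list of complex I, the NADH dehydrogenase, were at -0.30 and 0.62. The 4 on that of complex IV, the terminal oxidase, were at -0.19 and 0.75. These medians moved with single oocytes. Leaving out each in turn, the ribosomal median ran from -0.65 to 0.0060 over 11 oocytes and from -0.25, without T3.4, to 1.05 over 7, and that of complex I from -0.78 to 0.10 over 11 and from 0.20 to 1.16 over 7.

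The spread among oocytes of 1 time was wider than the difference between times for these lists. The mean level of the ribosomal proteins was 7.97 ± 1.29 (SD, n = 6) at 24 h and 7.72 ± 1.33 (SD, n = 5) at 2 h, on the log2 CPM scale. At 24 h it was 6.63, 6.94 and 6.94 in T1.1, T1.3 and T1.6 but 9.64, 9.08 and 8.56 in T1.2, T1.4 and T1.5. The same 3 oocytes were low for ATP synthase, at 6.57, 6.90 and 6.82 against 8.99, 8.97 and 8.39, and for complex IV, at 8.15, 8.04 and 7.99 against 11.10, 10.91 and 10.23. RPL19, a protein of the large ribosomal subunit, was at 319, 399.8 and 253 CPM in the low oocytes and at 6578, 5808 and 3403 CPM in the others. At 2 h the ribosomal list was at 5.52, 8.21, 8.10, 9.08 and 7.68 in T3.1 to T3.5. T3.2 and T3.4 were thus above T1.1, T1.3 and T1.6, which are 3 of the 5 kept oocytes at 24 h. The labels do not give the trial or batch of an oocyte, and its part was not tested.

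**Figure D4:**
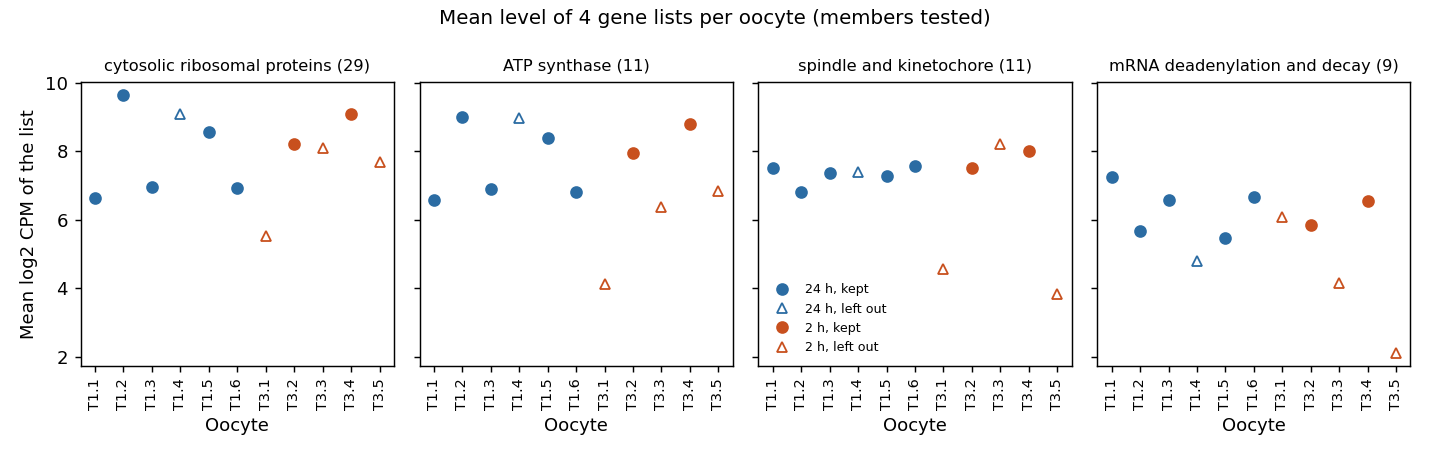
Mean log2 CPM of the members tested in 4 gene lists, for each oocyte (filled where kept by the study). The 24 h oocytes part into 3 low and 3 high for ribosomal proteins and ATP synthase but not for the spindle list, where T3.1 and T3.5 are low.

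Spindle and kinetochore genes, which serve the meiotic division, were of even level at 24 h. The mean level of the 11 named members was 6.80 to 7.58 log2 CPM there and 4.56, 7.51, 8.22, 8.00 and 3.85 in T3.1 to T3.5. The median log2 fold change was 0.03 over 11 oocytes and 0.48 over 7, although the mean level over 11 was lower at 2 h, where T3.1 and T3.5 were the low oocytes. CENPF, a kinetochore protein and the most abundant of them, was at 1617 to 3392 CPM (median 2145) at 24 h and at 3813, 2625, 4363, 5052 and 2877 CPM at 2 h, with a log2 fold change of 0.72 ± 0.63 (SE, edgeR adjusted p = 0.999). PLK1, the kinase that drives entry into and progress through division, was at 25.3 to 73.0 CPM (median 42.5) and at 7.23, 1.95, 53.9, 30.3 and 10.0 CPM, a log2 fold change of -1.21 ± 1.08 (SE, edgeR adjusted p = 0.999). MAD2L2, an adaptor of DNA repair placed on the checkpoint list, had a log2 fold change of -1.01 ± 0.96 (SE, edgeR adjusted p = 0.999). In each of these genes the groups overlapped.

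Genes that act on stored mRNA were of interest for transcript loss. The 9 named members of the deadenylation and decay list had a median log2 fold change of -0.36 over 11 oocytes and -0.17 over 7, with 7 of 9 below 0 in each, close to the medians of all genes. TUT7, which adds uridines to short-tailed mRNA, was at 3.41 to 269.7 CPM (median 106) at 24 h and at 12.7, 86.9, 45.6, 38.9 and 20.0 CPM at 2 h, with a log2 fold change of -1.48 ± 0.97 (SE, edgeR adjusted p = 0.999). EIF4E1B, the oocyte form of a cap-binding protein that represses stored mRNA, was at 25.6 to 279 CPM (median 52.1) and at 9.04, 76.4, 29.0, 22.1 and 5.0 CPM, with a log2 fold change of -1.68 ± 1.01 (SE, edgeR adjusted p = 0.999). Both genes were lower on average at 2 h, with overlap between the groups. So was GJA4, which is not a gene of mRNA control but the gap junction protein that links oocyte and cumulus cells. It was at 23.9 to 182 CPM (median 93.8) and at 0, 36.3, 99.5, 58.9 and 30.0 CPM, with a log2 fold change of -1.13 ± 1.01 (SE, edgeR adjusted p = 0.999). Other genes that act on stored mRNA had fold changes above 0, again with overlap and without passing the test. PAN3, a subunit of a deadenylase, was at 24.1 to 237 CPM (median 115) and at 866, 131, 199, 299 and 0 CPM, with a log2 fold change of 1.4 ± 0.92 (SE, edgeR adjusted p = 0.999). PATL2, an RNA-binding protein of oocytes, was at 0.427 to 27.2 CPM (median 12.4) and at 1.81, 27.7, 20.7, 22.1 and 0 CPM, with a log2 fold change of 0.34 ± 1.27 (SE, edgeR adjusted p = 0.999). Its mean log2 CPM was 3.02 at 2 h and 3.08 at 24 h, so its direction depends on the summary used.

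Glycolysis and sugar catabolism had the lowest median of the lists with at least 3 members tested, in both sets. It was -0.98 over 11 oocytes, with 5 of 7 members tested below 0, and -2.45 over 7, with 9 of 9 below 0, or -1.73 with genes at 0 in a group set to their bound. Over 11 the proteasome was close, at -0.94, and leaving out each oocyte moved the glycolysis median from -1.46 to -0.71. Over 7, the 3 members ALDOA, GALT and TKT had no count in T3.2 or T3.4 and passed the filter through 24 h oocytes alone. Their sign was fixed before the fit, so nothing is drawn from the 9 of 9, which includes them. A further 5 of the 12 named members over 11 oocytes, and 3 over 7, were too low to be tested. At an unadjusted p below 0.05 there were 0 members over 11 oocytes and 3 over 7, beside 4.96% of all genes. The 3 were GAPDH and, among those without counts at 2 h, ALDOA and GALT. GAPDH, a glycolytic enzyme, was at 3.84 to 309.7 CPM (median 139.5) at 24 h and at 183, 26.1, 129, 24.1 and 20.0 CPM in T3.1 to T3.5. Its log2 fold change was -0.98 ± 0.98 (SE, edgeR adjusted p = 0.999) over 11 oocytes and -2.84 ± 0.97 (SE, edgeR adjusted p = 0.909) over 7, and T1.1, at 19.2 CPM, was below T3.2 and T3.4. PGD, an enzyme of the pentose phosphate pathway, was at 28.1 to 205 CPM (median 90.3) and at 3.62, 29.6, 62.2, 43.8 and 15.0 CPM, with log2 fold changes of -1.74 ± 0.96 (SE, edgeR adjusted p = 0.999) and -1.51 ± 0.82 (SE, edgeR adjusted p = 0.909).

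The proteasome, which degrades ubiquitinated proteins, was also below the median of all genes, at -0.94 over 11 oocytes (9 of 12 members below 0) and -0.85 over 7 (9 of 13). Leaving out each oocyte gave -1.15 to -0.44 (without T1.2) over 11 and -1.09 to -0.50 (without T1.5) over 7. PSMC5, an ATPase of its cap, was at 0 to 28.2 CPM (median 11.6) at 24 h and at 16.3, 1.17, 0, 0 and 0 CPM at 2 h, with log2 fold changes of -1.85 ± 1.51 (SE, edgeR adjusted p = 0.999) and -4.67 ± 1.89 (SE, edgeR adjusted p = 0.909). After thinning, the proteasome median over 11 oocytes was 0.57. Mitochondrial ribosomal proteins had medians of 0.03 and -0.18. MRPL46 was the member with the lowest p, at 9.19 to 54.1 CPM (median 24.6) and at 0, 4.29, 12.4, 2.86 and 0 CPM, with a log2 fold change of -2.9 ± 1.35 (SE, edgeR adjusted p = 0.999). Translation initiation and elongation factors had medians of -0.15 and -1.19, the latter running from -2.48 without T3.2 to -0.29 without T1.5. This list was matched by name stem and also took EIF4EBP2 and EEF1AKMT1, which are not such factors. The mean levels of the spindle, mitochondrial ribosomal, mitochondrial import and chromatin lists were lower at 2 h while their median fold changes over 11 oocytes were above 0, so their direction depends on the summary used.

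**Figure D5:**
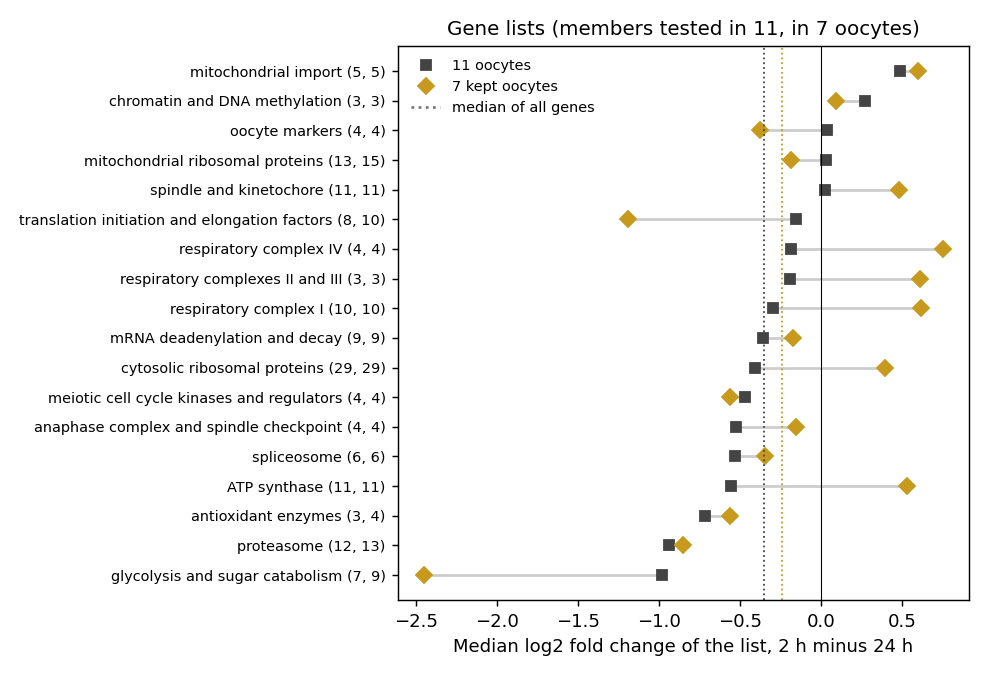
Median log2 fold change, 2 h minus 24 h, of gene lists with at least 3 members tested, over 11 oocytes (squares) and over the 7 kept (diamonds); dotted lines are the medians of all genes tested. Cytosolic ribosomal proteins, complex I, complex IV and ATP synthase lie below 0 over 11 oocytes and above 0 over 7.

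The study's table marks genes as more abundant in DF oocytes or in large oocytes dissected from the ovarian cortex, a choice made on a comparison that included the kept oocytes and so no independent evidence. Over the kept oocytes 726 of the 879 genes marked for those cortical oocytes had a fold change below 0 at 2 h, with a median of -1.23, against 301 of the 729 marked for DF oocytes, with a median of 0.15. Over 11 oocytes the numbers were 369 of 531, with a median of -0.66, and 433 of 720, with a median of -0.17.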

How the data were processed

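The measurements are deposited read counts per gene for single oocytes, from libraries made by Smart-seq2 and sequenced as single-end reads. The authors trimmed reads with Trim Galore (version 0.6.6 in the submitters' processing notes), aligned them with HISAT2 to the ARS-UCD1.2 genome and counted them per gene in SeqMonk, and the count table they deposited is not normalised. The annotation release and any strand setting are not given in the sources used here. Each oocyte came from a different animal. Of 21218 genes in the table, those passing filterByExpr (minimum count 10) in each oocyte set were tested in R 4.3.3. The quasi-likelihood test of edgeR 4.0.16 was run on TMM-scaled libraries, and p-values were adjusted over all genes tested (Benjamini-Hochberg). Standard errors are the fold change divided by the square root of F. Log2 CPM used a prior count of 2, and plotted levels and outlier checks used log2(CPM + 1). Groups were called non-overlapping beyond a tolerance of 1e-06 log2 units. Library measures were compared by exact permutation. The steps were tested on simulated data, where recovery of changed genes was required only at a lower dispersion (spread of counts between oocytes). The dispersion estimated here was 1.36 over 11 oocytes and 1.05 over 7, and the power to call genes at those values is not given.

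Genes named are the 10 in each direction with the lowest p over 11 oocytes, the 5 over 7, up to 5 lost or gained transcripts by CPM, and per list the most abundant members and those with the lowest p, of which the text gives some. Genes without overlap over 11 oocytes were to be named where log2 CPM averaged over all 11 reached 5, which held for no gene with a symbol, and exceptions are stated. The oocytes and lists were chosen with earlier results of these data known. Symbols came from the study's table (1732 usable of 1829 identifiers). Columns of that table with the authors' own comparison were used only for which group a gene was marked in. No genome of the files' build was used here, so no coordinates or sequences are given. Alternatives were the likelihood ratio test, DESeq2 1.42.0, RLE (relative log expression) and upper-quartile factors, 2 other filters, a fit with the other time label, thinned counts, a block on the replicate number and leaving out each oocyte.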

Additional observations from a re-analysis of the deposited data

Results flagged for a closer look

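Single oocytes stood apart from the rest of their group in 18 of 110 sets of a named gene or a library measure at 1 time, by the gap to the nearest oocyte over the whole range, which for genes was on the log2(CPM + 1) scale. All 18 were genes. Such a rule marks about 1 in 20 groups by chance, and where 4 oocytes of 5 are at 0 any count in the fifth meets it.

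At 24 h the oocyte T1.2 was far below the others for PEX11A, at 0, and for KLHL5, at 1.08. T1.4, which the study left out, was far below the others for ENDOG at 0, for PIK3CB at 0 and for TUT7 at 2.14. T1.1 was above the others for ITGB1, at 9.61.

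At 2 h a lone oocyte held counts while the other 4 were at 0 for PEX11A (0.475 in T3.2), PIP4P1 (1.36 in T3.2), SEPTIN4 (0.862 in T3.4), MORN4 (1.4 in T3.4), ABHD3 (8.83 in T3.1), TMEM106C (3.22 in T3.3), KAT8 (3.22 in T3.3) and TRMT1 (6.46 in T3.3). T3.1 was apart for PSMC5, at 4.11, and for GJA4, at 0, and T3.5 for PAN3, at 0. T3.2 was apart for SRGN, at 7.0, against at most 1.4 in the other 2 h oocytes. Most of these values rest on few counts.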

How the results depend on the processing

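The count of 0 called genes was kept under RLE and upper-quartile factors, 10 counts in every oocyte, no fold threshold, the fit with the other time label, thinning and leaving out each oocyte, in both oocyte sets. It was 6 and 17 by the likelihood ratio test, 17 and 86 by DESeq2, and 29 and 1 with no filter (11 and 7 oocytes). With no filter the 29 were 5 lower and 24 higher, unlike the mostly lower calls of the other tests. Non-overlapping genes over 11 oocytes were 11 lower and 4 higher after thinning, 0 higher with library size alone and 1 higher with RLE factors. Over 7 they were 212 higher with library size alone. Lost transcripts over 11 oocytes were 1 with at least 20 counts and 0 after thinning. Over 7 they were 45 with at least 5 counts, 2 with at least 20 and 8 after thinning, and gained ones 0 with at least 20 counts or after thinning. The cause was not tested.

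Leaving out each oocyte gave 58 to 301 non-overlapping lower genes and 2 to 14 higher over 11 oocytes (301 without T3.2, 14 without T3.5, and over 1.5 times more lower genes also without T1.1, T1.2, T1.4, T3.1, T3.3 or T3.4), and 593 to 1891 and 447 to 1653 over 7. Lost transcripts ranged from 4 to 26 and from 22 to 207 and gained ones over 7 from 7 to 54, the most without T3.2, or for gained without T3.4. Fewer oocytes make these rules easier to meet. The difference in total counts ranged from -2124759 to -1310736 (exact p 0.0159 to 0.0762), in genes from -4170 to -2500 (0.0159 to 0.0667), in thinned genes from -1879 to -1156 (0.0397 to 0.143) and in top-10 share from 5.95 to 10.3 percentage points. Over 7 oocytes the first pair were -292832 and -1152. Fold changes changed sign when an oocyte was left out for ABHD3 -6.52 to 4.53, C2H2orf80 -1.22 to 1.52, MPZL3 -0.35 to 1.19, PAM16 -0.089 to 3.74, RSPO2 -0.68 to 1.05, TRMT1 -8.0 to 0.71, PATL2 -0.050 to 0.76 and CSF1R -1.51 to 0.88 over 11 oocytes, and for FMR1NB -0.59 to 3.04, CSF1R -5.13 to 0.17, OOSP2 -0.47 to 0.77 and RPL19 -0.39 to 0.94 over 7. The values of -6.52 for ABHD3, without T3.1, and -8.0 for TRMT1, without T3.3, are no bounds, since no 2 h count was then left. EPHA6 was -0.20 after thinning. List medians crossed 0 when an oocyte was left out for spindle and kinetochore (-0.49 to 0.37), complex I (-0.78 to 0.10), mitochondrial import (-0.089 to 0.84), translation factors (-0.88 to 0.096) and cytosolic (-0.65 to 0.0060) and mitochondrial ribosomal proteins (-0.55 to 0.15) over 11 oocytes, and for mRNA decay (-0.74 to 0.0070) and cytosolic (-0.25 to 1.05) and mitochondrial ribosomal proteins (-0.45 to 0.062) over 7. Glycolysis over 7 ran from -3.90 to -1.99, and ATP synthase from -1.16 to -0.30 over 11 and from 0.25 to 1.19 over 7. At an unadjusted p below 0.05 the lower genes over 11 were 275 without T3.3, 375 without T3.4, and 103 without T1.3 or T1.6, and over 7 they were 701 without T3.2 and 277 without T1.6; the higher ones over 11 were 241 without T3.5, and over 7 were 137 without T3.2 and 135 without T1.2.

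The replicate numbers join different animals. Same-numbered oocytes correlated in their deviations by -0.0020 to 0.22, and 2 of 5 were closest to their own number, so the numbers do not pair the oocytes. The replicate block over 11 oocytes called 0 genes and turned the sign of ABHD3 (-2.38), USB1 (-0.49), FMR1NB (-0.24), PAM16 (-0.38), RSPO2 (-1.57), C2H2orf80 (-2.42), MPZL3 (-1.17), EPHA6 (-0.11), TRMT1 (-5.21) and CSF1R (-1.03). No paired analysis was possible over the 7 kept oocytes because the groups share 1 number.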

Other observations

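Of the shorter lists, 6 spliceosome genes had a median log2 fold change of -0.53 over 11 oocytes and -0.34 over 7, with 4 of 6 below 0 in each. The 4 named regulators of meiosis (CDC20, PLK1, SGO2 and SMC3) had medians of -0.47 and -0.56. Mitochondrial import, which holds PAM16, had medians of 0.49 and 0.60 over 5 genes, with 1 and 2 below 0. The 3 subunits of complexes II and III were at -0.19 and 0.62. No gene of these lists passed the call rule by edgeR's quasi-likelihood test, and PAM16 was called over 7 oocytes by the likelihood ratio test and by DESeq2.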
